A study of Rattus norvegicus with 28 samples.

Results

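The genes described here encode receptors for adenosine and for extracellular nucleotides, together with the 2 main enzymes that turn ATP into adenosine outside the cell. The set held 10 genes, chosen by name from the array annotation (Adora1, Adora2a, Adora2b, Adora3, P2rx4, P2rx7, P2ry6, P2ry12, Entpd1 and Nt5e), of the 35469 features on the array. All 10 were found, with 14 of the 41012 probes and 41 of the 43379 spots that were not controls. Adora1 and Adora2a had 2 probes each, Entpd1 had 3 and the other genes 1.

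Injured and dying cells spill ATP into the tissue. P2X receptors are ion channels that open when ATP binds, and P2Y receptors are G-protein coupled receptors for ATP, ADP or uridine nucleotides. The ectoenzyme CD39 (Entpd1) cuts ATP and ADP down to AMP, and CD73 (Nt5e) converts AMP to adenosine. Adenosine acts on G-protein coupled receptors, of which A1 (Adora1) and A3 (Adora3) inhibit adenylyl cyclase and those encoded by Adora2a and Adora2b stimulate it and so raise cAMP. In the spinal cord, A1 dampens transmitter release from neurons, whereas P2Y12, P2X4 and P2X7 are known for their parts in microglial process movement, pain hypersensitivity and inflammasome activation.

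Total RNA from the spinal cord of adult female Sprague Dawley rats was hybridised to single-dye microarrays, with 4 animals in each of 7 groups (28 arrays). A contusion of 250 kdyn at the level of thoracic vertebra 8 (SCI) was made under isoflurane (2%) after morphine at 2.5 mg/kg, and 1.5 cm of cord around the epicentre was taken from animals perfused with saline. T0 animals were uninjured (the labels call them sham), T1, T2, T4 and T8 animals were injured and killed 1, 2, 4 and 8 weeks later, and, per the study's methods, injured controls of the transplantation experiment received medium without cells. T1_NPC and T2_NPC animals received neural progenitor cells (NPCs), grown from the cord of injured adult rats, right after the contusion or 1 week after it, and were killed 1 week after transplantation. Care after surgery, listed for all animals, comprised Alsir (5 mg/kg, 7 days), Buprenorphine (0.1 mg/kg, 4 days) and, from the day before transplantation to the end point, FK-506 (tacrolimus, an immunosuppressant, 1 mg/kg). The labels place the tissue at thoracic levels 6 to 10, except for T2_NPC (7 to 10).

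The values are log2 intensities after quantile normalization, taken from the deposited value table, whose columns are named by sample. The raw scanner outputs conflict with that table: 16 of the 28 outputs matched the column of another sample (Spearman correlation 1, against 0.948 to 0.992 with the column of the sample they were deposited under). When each output was instead read as the sample it was deposited under, limma called 0 members in every comparison. Of the 35469 features it then called 0 (T1), 1 (T2), 0 (T4), 0 (T8), 0 (T1_NPC) and 831 (T2_NPC) against T0. It called 0 features in T1_NPC versus T1 and 43 in T2_NPC versus T2. Compared with T0, the members at an unadjusted p under 0.05 then numbered 1 (T1), 3 (T2), 7 (T4) and 2 (T8) of 10, beside 6.84%, 4.58%, 23.7% and 14% of all features. They numbered 2 in T1_NPC and 6 in T2_NPC, beside 18.1% and 26.9%. The other 12 arrays are undisputed (2 T0, 1 T1, 2 T2, 1 T4, 2 T8 and all 4 T2_NPC), and where they change a call the value on them is given. One array, T1_NPC replicate 2, stood apart from its group: its mean over 7 microglial marker genes was 9.97, against 11.24 to 11.65 in the other T1_NPC arrays and 9.73 to 10.23 in T0, and its mean over 7 T cell markers was 5.32, against 6.96 to 7.51. Not all markers of that array lay low. Its mean over 11 markers of myeloid cells and macrophages was 11.63, among the other T1_NPC arrays (11.407 to 11.905) and above T0 (7.12 to 7.70). Its mean over 6 fibroblast markers was 12.13, between T0 (9.49 to 10.14) and the other T1_NPC arrays (13.67 to 14.52). Results on T1_NPC are therefore given with and without that array. The arrays were scanned in 3 sessions, and the 8 transplanted arrays alone made up the last, each group on a slide of its own, so transplantation and slide cannot be told apart. On 74.5% to 82.7% of the spots the signal was well above background. Each member's probes were well above background on all 28 arrays, except that of P2rx7 (24 of 28).

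Microarray probes are 60 bases long, and 2 members had probes that allow a gene to be read at more than 1 place. The probes are given 5′ to 3′ with their rn4 coordinates from the array annotation, because the agreement between them bears on the results for Adora1 and Entpd1. The first and second Entpd1 probes (chr1:245887283-245887342 and chr1:245887297-245887356, plus strand) overlap by 46 bases, printed in capitals, so they are not independent readings. The remaining Entpd1 probe lies 2281 bases further on (chr1:245889638-245889697, plus strand) and is shown by its first 30 bases.
Entpd1 probe A_44_P214479: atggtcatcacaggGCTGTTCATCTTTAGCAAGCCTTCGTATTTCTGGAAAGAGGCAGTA
Entpd1 probe A_43_P12252: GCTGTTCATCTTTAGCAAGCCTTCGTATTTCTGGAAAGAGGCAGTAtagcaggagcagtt
Entpd1 probe A_44_P1035058, first 30 bases: ggttatagttaattattacttatctctaga

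Both Adora1 probes read the minus strand of chromosome 13, with 1135 bases between them. The first (chr13:47159190-47159249, shown by its first 30 bases) was spotted 10 times on each array, with a median SD of 0.05 (log2) among its spots. The second (chr13:47160385-47160444) was spotted once.
Adora1 probe A_44_P137633, first 30 bases: ggcttttgggagggtctcagataggaccaa
Adora1 probe A_44_P447514: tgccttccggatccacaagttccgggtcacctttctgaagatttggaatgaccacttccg

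The probes of P2rx4 (chr12:34945104-34945163, minus strand) and Adora3 (chr2:201160545-201160604, plus strand) are shown as the sole readings of the ion channel that lay furthest above T0 in T1_NPC and of the adenosine receptor that moved against the others.
P2rx4 probe A_44_P484909: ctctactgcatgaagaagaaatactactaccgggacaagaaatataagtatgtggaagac
Adora3 probe A_44_P217451: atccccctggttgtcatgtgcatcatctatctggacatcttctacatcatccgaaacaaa

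Across the time course, 4 of the 10 genes (P2rx4, P2rx7, P2ry6 and Entpd1) were higher than in uninjured cord at every time point. P2ry12 and Adora3 were higher at T1 and T2, Adora1 was lower at T1, T2 and T8, and Adora2b was lower at T1 and T2. Calls rest on limma's moderated test, with a threshold of 0.05 on p-values adjusted over all 35469 features by the Benjamini-Hochberg procedure. At T1, 6 members rose and 2 fell, against 19.1% of all features called higher and 25.1% called lower. The counts at T2 were the same (6 higher and 2 lower, against 17.7% and 22.2% of features). At T4, 4 members were higher and 0 lower (17.5% and 21% of features), with 5 members at an unadjusted p under the threshold. At T8, 4 were higher and 1 lower (18.2% and 21.5%). Shares of all features are not given here for calls at all 4 time points together or for fits on fewer arrays. The median log2 change of the 10 genes was 0.85, 0.74, 0.35 and 0.51 at T1, T2, T4 and T8, beside -0.10, -0.05, -0.06 and -0.04 over all features. With the 12 undisputed arrays alone 7, 8, 5 and 6 members were called in the order of the time points, including P2rx4, P2rx7, P2ry6 and Entpd1 each time. On those arrays Adora3 lost its call at T1 (0.45, adjusted p = 0.083), and Adora1 at T4 (-0.56, adjusted p = 0.039) and P2ry12 at T8 (0.44, adjusted p = 0.043) gained one.

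**Figure D1:**
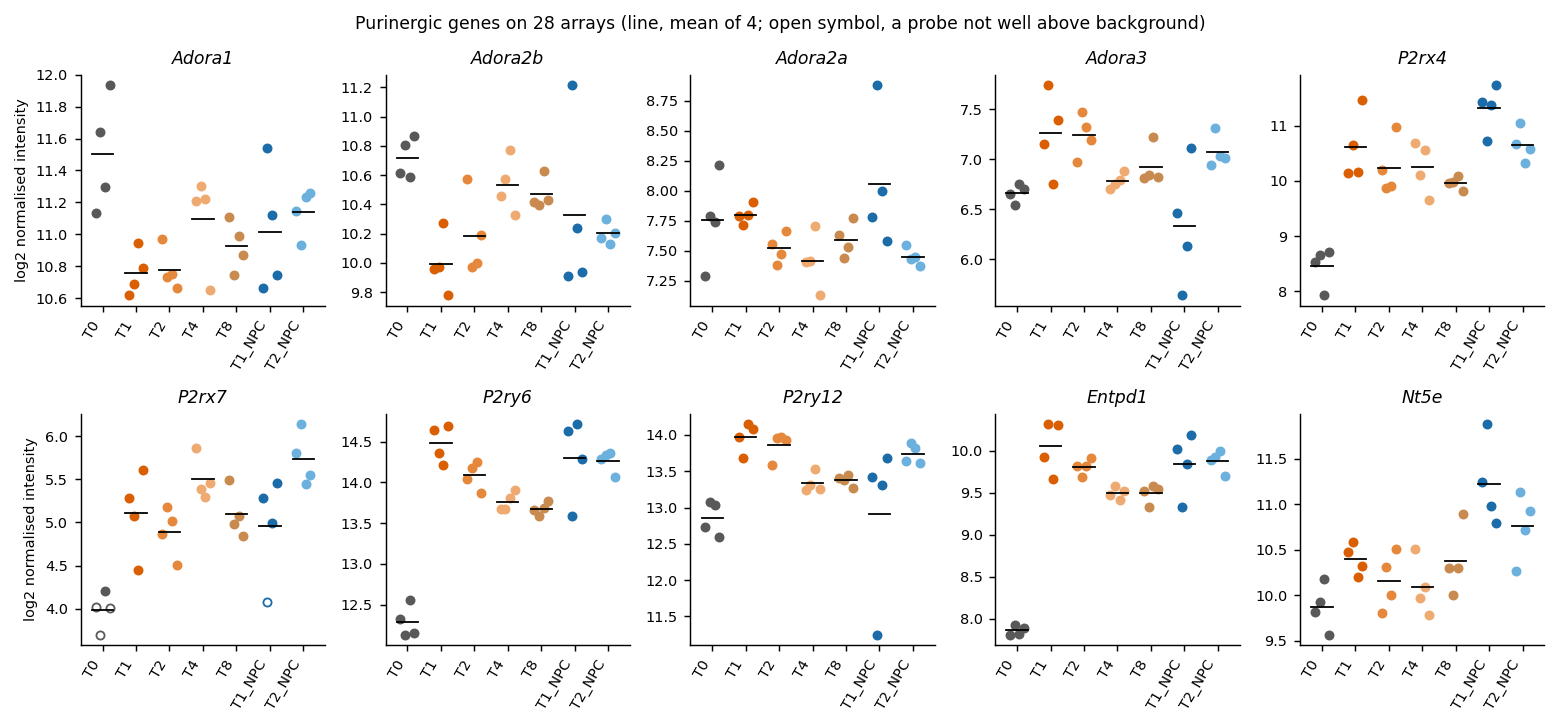
Log2 normalised intensity (y axis) of the 10 genes in each array, by group (x axis, 4 arrays a group from replicate 1 at the left to 4 at the right, line at the mean, open symbols where the probe was not well above background). Entpd1 lies between 7.81 and 7.93 in T0 and from 9.33 upwards in all injured arrays, and T1_NPC replicate 2 is the low point for P2ry12 (11.25).

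**Figure D2:**
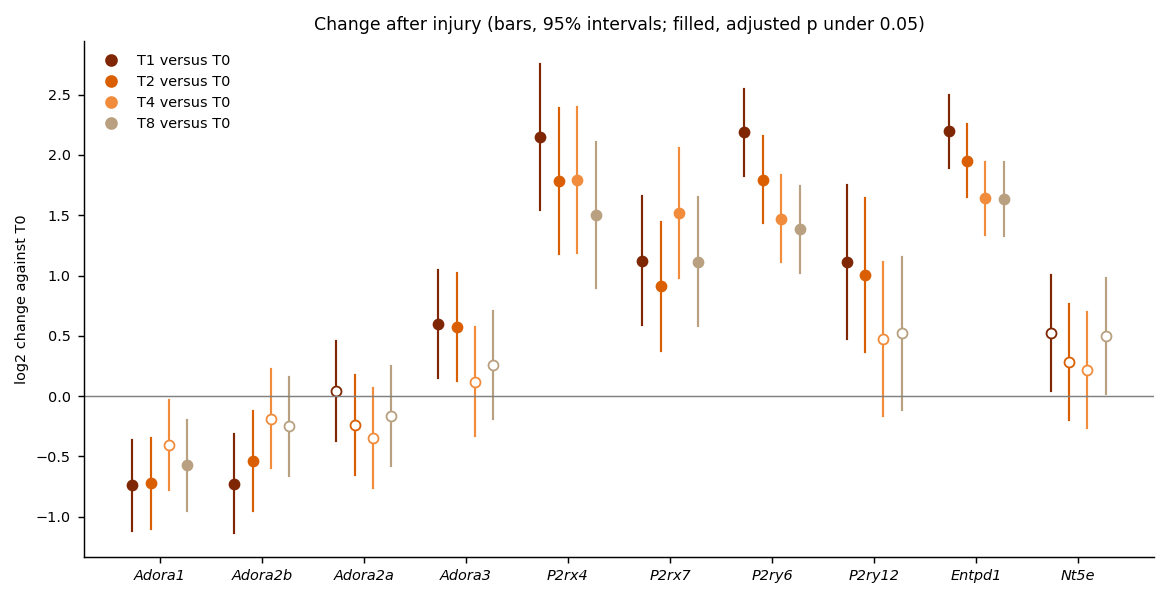
Log2 change against T0 (y axis) of the 10 genes (x axis) at T1, T2, T4 and T8, with 95% confidence intervals as bars and filled symbols at an adjusted p under 0.05. P2rx4, P2rx7, P2ry6 and Entpd1 are filled at all 4 time points, and Adora2a and Nt5e at none.

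Entpd1, the enzyme that begins the breakdown of extracellular ATP, separated injured from uninjured cord with the smallest error of the set. Its log2 values in T0 replicates 1 to 4 were 7.81, 7.93, 7.81 and 7.89. They were 9.93, 10.32, 9.66 and 10.30 in T1 and 9.82, 9.69, 9.82 and 9.92 in T2. No injured array overlapped T0. In T4 the values were 9.48, 9.59, 9.41 and 9.52, and in T8 9.52, 9.33, 9.58 and 9.55, and the T0 arrays varied by an SD of 0.06 (n = 4). Expression was 4.58-fold higher at T1 (log2 change 2.19, SE 0.15, adjusted p = 2.7e-11), 3.87-fold at T2 (1.95), 3.11-fold at T4 (1.64) and 3.11-fold at T8 (1.63, adjusted p = 6.0e-09). All 3 probes were called at each time point when probes were tested singly, where 45%, 40.6%, 39.1% and 40.5% of all probes were called at T1, T2, T4 and T8. The overlapping pair gave log2 changes at T1 of 2.45 and 2.37, and the separate probe 1.76.

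Nt5e, which completes the step from AMP to adenosine, did not pass the test after injury at any time point. Its T0 values were 9.82, 9.92, 10.18 and 9.57, and those of T1 were 10.47, 10.59, 10.20 and 10.32. The T1 values lay just above those of T0 without overlap, and the change of 0.52 (95% interval 0.04 to 1.00) had an adjusted p of 0.073. T2, T4 and T8 overlapped T0, with changes of 0.28, 0.22 and 0.50. The T1 change passed the test with the time-course arrays alone (adjusted p = 0.043). In the 2 scan sessions with T0 arrays the T4 difference ran in opposite directions (-0.21 with 1 T4 array, 0.44 with 3).

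Of the 4 nucleotide receptors in the set, P2rx4, P2rx7 and P2ry6 were higher at every time point and P2ry12 at T1 and T2. P2ry6, the receptor for UDP on microglia and macrophages, measured 12.32, 12.13, 12.56 and 12.16 in T0 and 14.65, 14.37, 14.21 and 14.69 in T1. It measured 14.04, 14.18, 14.25 and 13.87 in T2. The injured arrays were all higher than any T0 array. Values in T4 were 13.67, 13.67, 13.80 and 13.90, and values in T8 were 13.66, 13.58, 13.68 and 13.77, below every T1 array. The log2 change fell from 2.19 at T1 (SE 0.17, adjusted p = 5.7e-10) through 1.79 at T2 and 1.47 at T4 to 1.38 at T8 (adjusted p = 9.4e-07).

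P2rx4, an ATP-gated channel of microglia and of lysosomal membranes, varied more among injured animals. The T0 arrays gave 8.53, 8.65, 7.93 and 8.72, and the T1 arrays 10.15, 10.64, 10.16 and 11.46. The T2 arrays gave 10.20, 9.86, 9.91 and 10.98. The lowest injured value exceeded the highest T0 value. At T4 (10.68, 10.10, 10.56 and 9.65) and T8 (9.95, 9.98, 10.08 and 9.82) the groups were still apart from T0. Expression was 4.43-fold higher at T1 (log2 change 2.15, SE 0.29, adjusted p = 2.3e-06), 3.44-fold at T2, 3.46-fold at T4 and 2.84-fold at T8 (adjusted p = 2.0e-04).

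P2rx7, the channel whose opening leads to inflammasome activation, was read by a dim probe 129.7 kb from that of P2rx4 on chromosome 12 (chr12:35074875-35074934). The T0 values were 4.01, 3.70, 4.21 and 4.01, and the signal was well above background in 1 of these 4 arrays. The T1 values were 5.29, 5.07, 4.45 and 5.61, the T2 values 4.87, 5.18, 5.01 and 4.51. All injured arrays were well above background and higher than T0. The T4 values were 5.87, 5.39, 5.29 and 5.45, and T8 gave 5.49, 4.98, 5.07 and 4.84. T4 had the highest mean of the time course, but its arrays overlapped those of T1 and T8. The log2 changes were 1.12 (SE 0.26, adjusted p = 9.9e-04), 0.91, 1.52 and 1.12 (adjusted p = 0.0012), and since 3 T0 arrays were near background their size is uncertain. After normexp background correction with an offset of 50, the 4 changes were still called but measured 0.24, 0.17, 0.34 and 0.21. An offset added to dim signals shrinks log2 changes by itself, so these values cannot settle the size of the rise.

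P2ry12, the ADP receptor of resting microglia, was higher at T1 and T2. Its values were 12.73, 13.07, 13.03 and 12.60 in T0, 13.97, 13.69, 14.15 and 14.08 in T1 and 13.59, 13.95, 13.97 and 13.93 in T2. In T4 they were 13.24, 13.31, 13.53 and 13.26, and in T8 13.41, 13.38, 13.45 and 13.28. Every injured array lay above every T0 array. The log2 change was 1.11 at T1 (SE 0.31, adjusted p = 0.0048) and 1.00 at T2 (adjusted p = 0.011), but 0.48 at T4 (adjusted p = 0.24) and 0.52 at T8 (adjusted p = 0.20), which did not pass. These calls turned on a single array of another group. T1_NPC replicate 2 enlarged the spread that all groups share in the fit, and without it P2ry12 was also called at T4 (adjusted p = 0.0040) and T8 (adjusted p = 0.0018), with the changes themselves unaltered.

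The receptors for adenosine were lower or showed small changes, except Adora3. Adora1, the A1 receptor, gave a mean over its 2 probes of 11.14, 11.64, 11.30 and 11.93 in T0, 10.62, 10.69, 10.95 and 10.79 in T1 and 10.97, 10.73, 10.75 and 10.66 in T2. The T1 and T2 arrays all lay below T0. The T4 arrays (11.21, 11.30, 11.22 and 10.65) overlapped T0, and the T8 arrays (11.11, 10.75, 10.99 and 10.87) lay just below it. Expression was 1.67-fold lower at T1 (log2 change -0.74, SE 0.18, adjusted p = 0.0018), 1.65-fold lower at T2 (-0.72) and 1.49-fold lower at T8 (-0.57, adjusted p = 0.014). The T4 change of -0.41 had an adjusted p of 0.084, and it passed with the slide as a fixed block (0.0048), without T0 replicate 1 (0.034) and without T1_NPC replicate 2 (0.048). The T8 call was lost without T0 replicate 4 (0.069).

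The 2 Adora1 probes gave different pictures. The probe with 10 spots read 13.50, 13.47, 13.58 and 13.59 in T0, 12.65, 12.25, 12.70 and 12.29 in T1 and 12.84, 12.88, 12.91 and 12.85 in T4. It was lower in every injured array than in any T0 array and was called at T1 (-1.06, adjusted p = 6.1e-06), T2 (-0.88), T4 (-0.67) and T8 (-0.72). The probe with a single spot, in the more upstream position printed above, read 8.77, 9.81, 9.01 and 10.28 in T0 and 8.59, 9.14, 9.19 and 9.29 in T1. Its T0 arrays were widely spread, and it was not called at any time point (-0.42, -0.56, -0.14 and -0.43, lowest adjusted p = 0.15). The mean over both probes therefore carries the spread of the second.

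**Figure D3:**
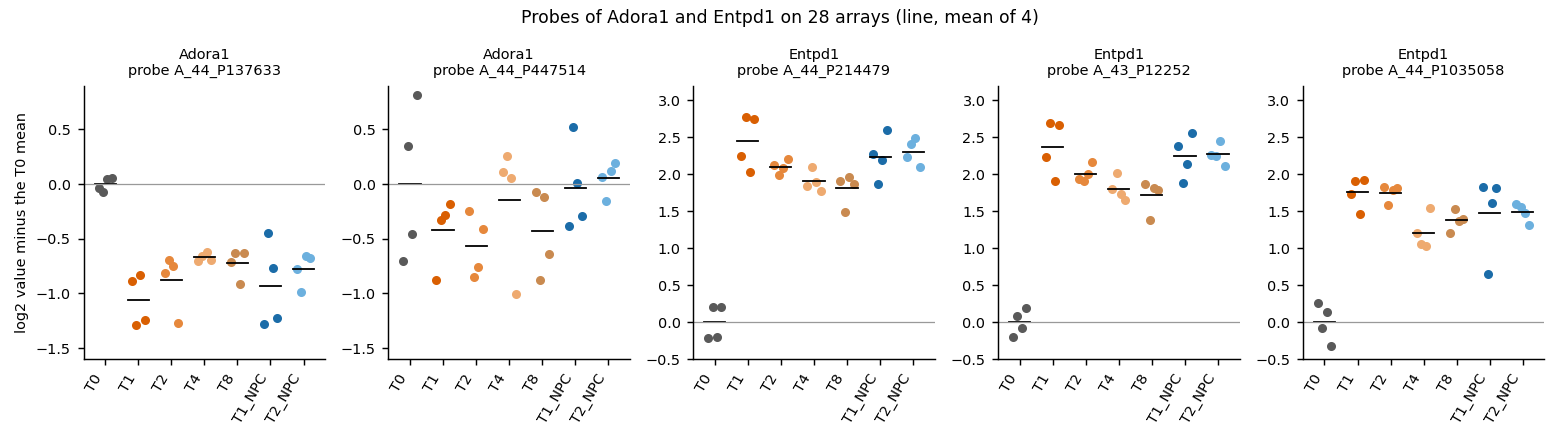
Log2 value minus the probe's T0 mean (y axis) for the 2 probes of Adora1 and the 3 of Entpd1 in each array, by group (x axis, line at the mean of 4). The 10-spot Adora1 probe A_44_P137633 has tight T0 arrays and falls by 1.06 at T1, while A_44_P447514 has scattered T0 arrays, and all 3 Entpd1 probes rise.

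Adora2b, a receptor that responds to high adenosine, measured 10.62, 10.80, 10.58 and 10.87 in T0 and 9.96, 9.97, 10.27 and 9.78 in T1. It measured 10.57, 9.97, 10.00 and 10.19 in T2. The T1 and T2 arrays lay below T0, T2 replicate 1 only just. T4 and T8 overlapped T0. The change was -0.72 at T1 (SE 0.20, adjusted p = 0.0046) and -0.54 at T2 (adjusted p = 0.035), and -0.19 and -0.25 at T4 and T8 (adjusted p = 0.51 and 0.35). The T2 call was lost when any of 5 arrays was left out (T0 replicate 2 or 4, T2 replicate 2, 3 or 4, adjusted p up to 0.094).

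Adora3, the A3 receptor, moved the other way. It measured 6.65, 6.54, 6.76 and 6.70 in T0, 7.15, 7.74, 6.75 and 7.39 in T1 and 6.97, 7.47, 7.32 and 7.20 in T2. T1 replicate 3 overlapped T0 and the other T1 and T2 arrays did not. The change was 0.60 at T1 (SE 0.22, adjusted p = 0.029) and 0.58 at T2 (adjusted p = 0.037), and 0.12 and 0.26 at T4 and T8. The T1 call was lost without T0 replicate 1 or 2 or T1 replicate 2 or 4 (adjusted p up to 0.13), and the T2 call without any 1 of 7 arrays, that is all but T2 replicate 1 (up to 0.099).

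Adora2a, known from striatal neurons, vessels and leukocytes, was not called in any comparison. Its values ran from 7.29 to 8.22 in T0, from 7.72 to 7.90 in T1 and from 7.13 to 7.71 in T4. T1, T2, T4 and T8 each overlapped T0. The change against T0 was 0.04 at T1 (95% interval -0.37 to 0.46), -0.24 at T2, -0.35 at T4 and -0.17 at T8. Of its 2 probes, the one with 10 spots was called lower at T4 (-0.48, adjusted p = 0.038), and the change at T4 was also called with the scan session as a block (-0.40, adjusted p = 0.026).

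Between successive time points no member was called by limma. Of all features, 1.48% were called for T2 versus T1, 0.0761% for T4 versus T2 and 0.0902% for T8 versus T4. At an unadjusted p under 0.05 there was 1 member of 10 for T2 versus T1 (P2ry6), 3 for T4 versus T2 (Adora3, P2rx7 and Entpd1) and 0 for T8 versus T4, beside 13.9%, 9.02% and 4.84% of all features. Over T1, T2, T4 and T8 together, an F test called 2 members, P2ry6 (adjusted p = 0.011) and Entpd1 (adjusted p = 0.030), against 7.73% of all features. Both were highest at T1. Of the Entpd1 probes tested singly by the F test, A_43_P12252 passed (adjusted p = 0.036). The overlapping A_44_P214479 (0.056) and the separate A_44_P1035058 (0.14) did not. The separate probe had means of 11.62 at T1 and 11.61 at T2. The number of members called by the F test was 4 with the time-course arrays alone or without T1_NPC replicate 2. It was 1 without T1 replicate 2, T4 replicate 1, T4 replicate 3 or T8 replicate 2, and 0 without T1 replicate 4. The shares of all features in these fits are not given here.

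Marker genes of several cell types moved with these changes, and in whole tissue a shift in cell number and a shift in RNA per cell cannot be told apart. The mean over 7 microglial marker genes rose from between 9.73 and 10.23 in T0 to between 11.30 and 11.63 in T1, with 5 of 7 called higher, and that over 11 markers of myeloid cells and macrophages from between 7.12 and 7.70 to between 11.21 and 11.57, with 11 of 11 called higher. T cell markers (6 of 7) and fibroblast markers (6 of 6) were higher at T1, and 8 of 9 neuronal and 5 of 7 oligodendrocyte markers were lower. The part of these shifts in the values of P2rx4, P2rx7, P2ry6, P2ry12, Entpd1 and Adora1 was not tested. Among features well above background on every array, those whose values followed a member most closely were Fcgr1a for P2ry6 (Pearson r 0.98 over 28 arrays), an activating Fc receptor, Scpep1 for Entpd1 (0.98) and Unc93b1 for P2rx4 (0.96), a carrier of endosomal Toll-like receptors. For P2rx7 it was Bhlhe41 (0.88). The next were Tlr6 and Fcgr3a for P2ry6 (both 0.97), Dpp7 and Arl11 for Entpd1 (both 0.98), Tmem86a and Sh3bp2 for P2rx4 (both 0.95) and Dnai2 and Erp29 for P2rx7 (both 0.86). These correlations span the step between uninjured and injured cord that the arrays share. Within the 16 injured arrays without transplantation the closest genes had r of 0.94, 0.90, 0.87 and 0.62 in that order.

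Transplantation was compared with injured cord of the same age. After acute transplantation (T1_NPC versus T1), 1 member was higher (Nt5e) and 2 were lower (Adora3 and P2ry12), against 5.45% and 6.46% of all features. After subacute transplantation (T2_NPC versus T2), 1 member was higher (P2rx7) and 0 lower, against 4.62% and 4.85%. None of these 4 calls held under all settings, and with the slide as a random block only that of Adora3 remained (adjusted p = 0.033).

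Nt5e measured 11.25, 11.88, 10.98 and 10.79 in T1_NPC, above all T1 arrays. It was 1.78-fold higher (log2 change 0.83, SE 0.23, adjusted p = 0.022), and 2.55-fold higher than in T0 (1.35, adjusted p = 3.6e-05, or 1.14 without T1_NPC replicate 2, adjusted p = 1.9e-04). Without T1_NPC replicate 2, its highest array, the change was 0.61 (adjusted p = 0.097), and the call was also lost without T1 replicate 3 or 4 (adjusted p = 0.066 and 0.0518). T2_NPC gave 10.26, 11.13, 10.72 and 10.92, which overlapped T2 (9.81, 10.31, 10.00 and 10.50), with a change of 0.60 (adjusted p = 0.11). Against T0 the T2_NPC change of 0.89 passed (adjusted p = 0.0029), but not on the undisputed arrays (0.76, adjusted p = 0.075).

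P2ry12 measured 13.41, 11.25, 13.31 and 13.68 in T1_NPC, all below the lowest T1 array (13.69). Replicate 2 lay far below the other arrays of its group. The change was -1.06 (SE 0.31, adjusted p = 0.027) with it and -0.51 (adjusted p = 0.023) without it, a fall of smaller size but still called. The call was lost without T1 replicate 1, 3 or 4 (adjusted p up to 0.070). In T2_NPC, with 13.64, 13.89, 13.82 and 13.61, the change was -0.12 (adjusted p = 0.86). Of 7 microglial markers, 1 was called lower and 0 higher in T1_NPC versus T1 (6.46% and 5.45% of all features). Their part in the P2ry12 difference was not tested.

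Adora3 measured 6.46, 5.64, 6.14 and 7.11 in T1_NPC, of which 3 arrays lay below all of T1 and T0. The change was -0.92 (SE 0.22, adjusted p = 0.0076), and -0.69 (adjusted p = 0.034) without replicate 2. It passed whichever array was left out (adjusted p up to 0.035), but not when only the T1 and T1_NPC arrays entered the fit (adjusted p = 0.18). In T2_NPC it measured 6.95, 7.32, 7.03 and 7.01 and differed from T2 by -0.16 (adjusted p = 0.71).

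P2rx7 measured 5.80, 6.14, 5.44 and 5.55 in T2_NPC, above all T2 arrays, with a change of 0.84 (SE 0.26, adjusted p = 0.042) that was lost when any of 6 of the 8 arrays was left out (adjusted p up to 0.14) and on the undisputed arrays (0.64, adjusted p = 0.054). On those arrays P2rx4 (0.77, adjusted p = 0.048) and Adora1 (0.40, adjusted p = 0.045) were called higher in T2_NPC than in T2 instead. Marker levels moved as well: the microglial mean was 11.54 to 11.63 in T2_NPC and 11.13 to 11.31 in T2, and that of 7 oligodendrocyte markers 14.73 to 14.84 and 14.17 to 14.42, without overlap, with 1 of 7 and 2 of 7 genes called higher. The means of 5 progenitor markers (11.94 to 12.07 in T2_NPC, 11.64 to 11.83 in T2) did not overlap either, with 1 called higher. Nor did those of 6 endothelial markers (8.73 to 8.84 and 8.34 to 8.70), with 1 called higher. The means of the myeloid, T cell, mast cell, neuronal, astrocyte and fibroblast markers overlapped between T2_NPC and T2. Within the lists that did not overlap, Trem2, Csf1r, Mag, Mog, Kdr, Pecam1 and Cdh5 had lower means in T2_NPC than in T2. None of these was called lower. The part of these markers in the P2rx7 difference was not tested. T1_NPC gave 5.29, 4.07, 5.00 and 5.46, of which replicate 2 was not well above background, and differed from T1 by -0.15 (0.14 without replicate 2). P2rx4 measured 11.43, 10.72, 11.37 and 11.73 in T1_NPC, and its change against T1 of 0.71 had an adjusted p of 0.12 (0.91 without T1_NPC replicate 2, adjusted p = 0.066). That change passed without T1 replicate 4 (1.00, adjusted p = 0.028).

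**Figure D4:**
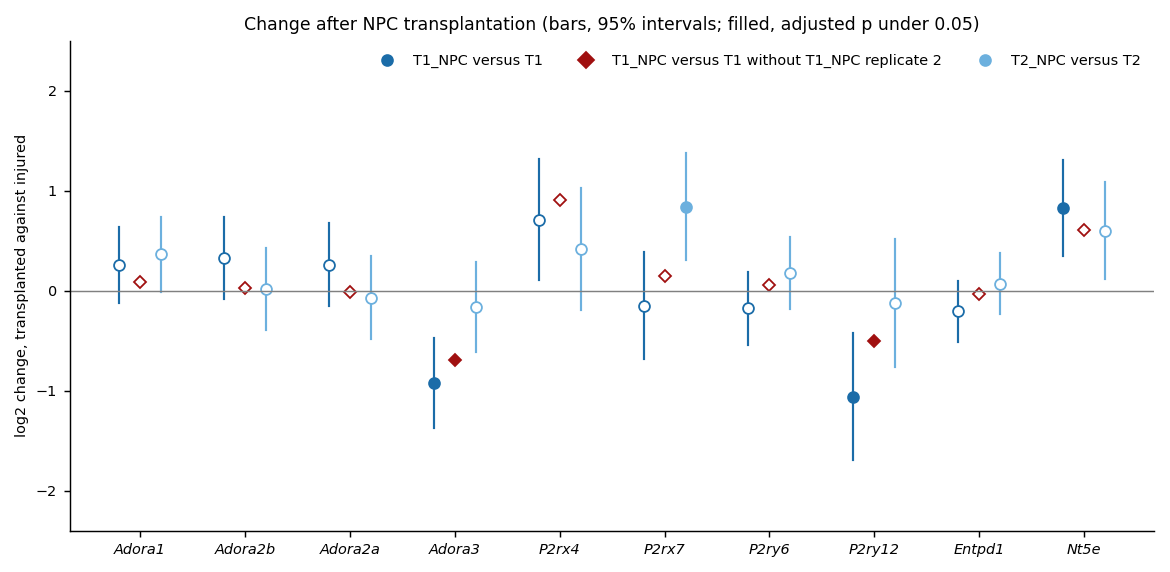
Log2 change in each transplanted group relative to injured cord of the same age (y axis) for the 10 genes (x axis), circles with 95% confidence intervals, filled at an adjusted p under 0.05, and diamonds for T1_NPC versus T1 without T1_NPC replicate 2, shown with no interval. Leaving that array out moves P2ry12 from -1.06 to -0.51 and opens the symbol of Nt5e.

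The other members showed small differences after transplantation. P2ry6 differed by -0.18 (95% interval -0.54 to 0.18) in T1_NPC and by 0.17 in T2_NPC, and Entpd1 by -0.21 (-0.51 to 0.10) and 0.07. T1_NPC replicate 2 was the lowest array of its group for both (13.58 and 9.33), and without it the differences in T1_NPC were 0.06 and -0.04. For the adenosine receptors Adora1, Adora2a and Adora2b it was the highest (11.54, 8.88 and 11.22), and without it their differences from T1 were 0.08, -0.01 and 0.03, in place of 0.26, 0.26 and 0.33. The difference between both transplantation effects was not called for any member by limma (against 0.299% of all features). The unadjusted p was 0.013 for P2rx7, 0.042 for P2ry12 and 0.021 for Adora3, and 11.2% of all features had an unadjusted p under 0.05.

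Against uninjured cord, 5 members were higher and 1 lower in T1_NPC (22.8% and 29.9% of all features), and 6 were higher and 1 lower in T2_NPC (21.2% and 26.5%). Without T1_NPC replicate 2 the T1_NPC counts were 6 and 2, and the shares of all features in that fit are not given here. P2rx4, P2rx7, P2ry6, Entpd1 and Nt5e were higher in both groups, and in T1_NPC without replicate 2 their log2 changes were 3.05, 1.27, 2.25, 2.16 and 1.14. P2ry12 was higher in T2_NPC (0.88, adjusted p = 0.021), a call lost with the slide as a random block (0.064), with 75th percentile scaling (0.10) and without T0 replicate 4 or T2_NPC replicate 2. Adora1 was lower in T1_NPC (-0.48, adjusted p = 0.029, or -0.66 without replicate 2, adjusted p = 0.0028). That call was lost with only the groups compared (0.16) and without T0 replicate 2 or 4 or T1_NPC replicate 1 or 4, and the single-spot Adora1 probe read -0.04. Adora3 in T2_NPC (0.41, adjusted p = 0.12) was called on the undisputed arrays (0.37, adjusted p = 0.032). P2rx4 in T1_NPC was 7.25-fold above T0 (log2 change 2.86, SE 0.29, adjusted p = 2.7e-08), and its log2 change in T2_NPC was 2.20. Adora2b was lower in T2_NPC (-0.52, adjusted p = 0.036), a call lost with the slide as a random block (0.066). The call was also lost without T0 replicate 2 or 4 or T2_NPC replicate 1, 3 or 4 (adjusted p up to 0.085). In T1_NPC the change of Adora2b was -0.39 (adjusted p = 0.10), or -0.69 (adjusted p = 2.7e-04) without replicate 2. That of P2ry12 was 0.05 (adjusted p = 0.91), or 0.61 (adjusted p = 6.7e-04) without replicate 2. All comparisons against T0 share the 4 T0 arrays.

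Of 41 further genes of the pathway, listed with earlier results of these data known, 37 were on the array. In T1, 13 of 37 were called higher and 11 lower (19.1% and 25.1% of all features). The counts were 10 and 12 in T2 (17.7% and 22.2%), 10 and 13 in T4 (17.5% and 21%) and 11 and 12 in T8 (18.2% and 21.5%). Their median log2 change was -0.07, 0.00, 0.11 and 0.07, beside -0.10, -0.05, -0.06 and -0.04 over all features. The same direction was called at all 4 time points for 9 genes that rose and 11 that fell. The share of all features called alike at all 4 time points is not given here, so these counts have no background beside them. Among those of adenosine handling, Ada, the deaminase that turns adenosine into inosine, was higher by 3.34 at T1 and 2.72 at T8 (log2), and Dpp4, a dipeptidyl peptidase of the cell membrane, by 2.16 at T1 and 4.63 at T8. The nucleoside carriers Slc28a2 and Slc29a3 were higher by 3.04 and 1.55 at T1. The other 3 genes of this list with the same call at all time points were lower: Adk, the kinase that returns adenosine to AMP (-0.97 at T1, -0.77 at T8), the AMP deaminase Ampd2 (-0.46 at T1) and the transporter Slc29a4 (-0.67 at T1).

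Among receptors, the ATP-gated channel P2rx1 rose by 3.25 at T1 and 2.02 at T8, P2ry2, a receptor for ATP and UTP, by 1.36 and 1.52, and P2ry14, a receptor for UDP sugars, by 1.25 and 0.95. P2rx1 was dim, with a T0 mean of 3.17 (P2rx7 3.98) and signal well above background on 25 of 28 arrays. The size of its rise is therefore uncertain. The channel subunits P2rx6 (-2.04 at T1) and P2rx2 (-1.11) and the ADP receptor P2ry1 (-0.91) were lower. Of the ectoenzymes, Enpp3 (3.23 at T1) and the ATPase Entpd2 (1.15 at T1, 1.82 at T8) were higher, whereas Entpd3 (-2.34), Entpd6 (-1.14) and Enpp2, the lysophospholipase autotaxin (-1.14), were lower. Entpd2 and Entpd3 thus ran in opposite directions from each other within the family of Entpd1. The pannexin channel Panx2 was lower by 1.78 at both T1 and T8 (log2 change -1.78).

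**Figure D5:**
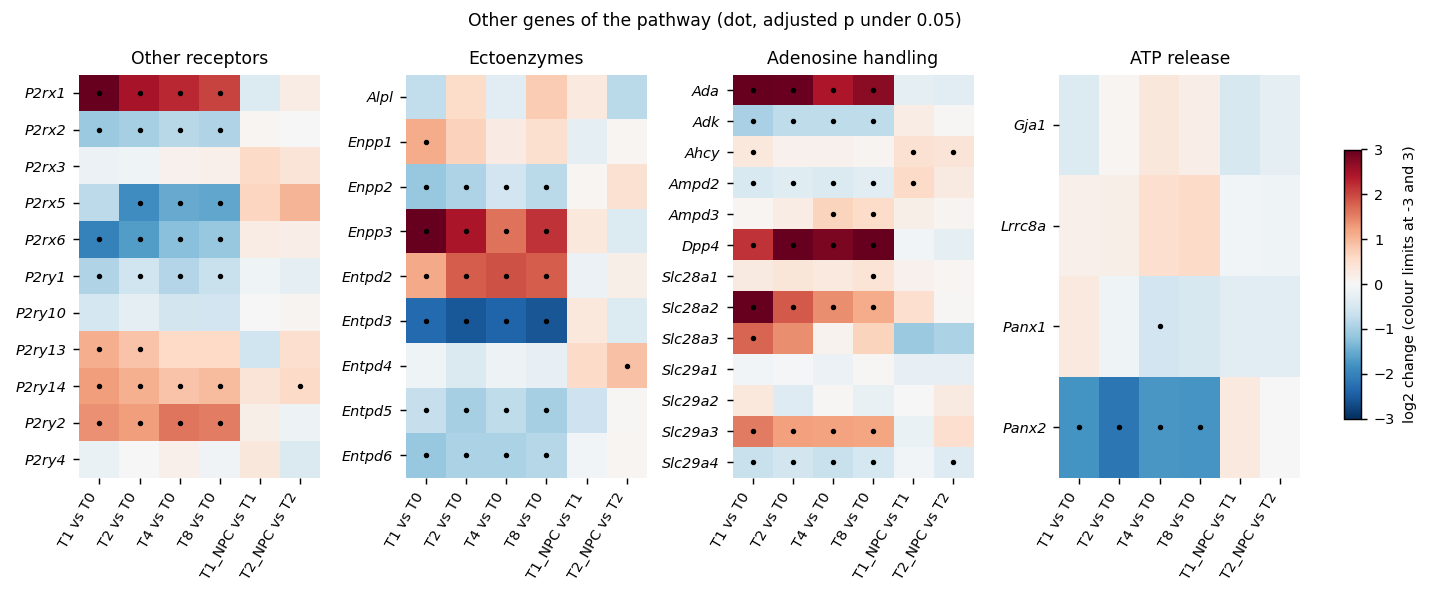
Log2 change (colour) of the 37 further pathway genes (rows, by role) in 6 comparisons (columns), with a dot at an adjusted p under 0.05. Columns against T0 hold most dots, and the transplantation columns hold 2 (T1_NPC versus T1) and 4 (T2_NPC versus T2).

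After transplantation, 2 of the 37 genes were called in T1_NPC versus T1 (11.9% of all features) and 4 in T2_NPC versus T2 (9.47%), and all are named because the counts are small. In T1_NPC versus T1, Ahcy, which releases adenosine from S-adenosylhomocysteine, was higher by 0.46 (adjusted p = 0.011) and the AMP deaminase Ampd2 by 0.57 (adjusted p = 0.0054). In T2_NPC versus T2, P2ry14 (0.57), Entpd4 (0.89) and Ahcy (0.38) were higher and the transporter Slc29a4 was lower (-0.39, adjusted p = 0.033).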

How the data were processed

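RNA from 28 spinal cord samples was hybridised to single-dye arrays. The authors deposited scanner outputs with intensity per spot (Agilent Feature Extraction) and a value table of log2 values, quantile normalized between arrays, whose reference distribution is not given in the sources used here. Groups came from the labels. The 43379 spots were averaged to 41012 probes and these to 35469 features by gene name, with no filter on dim probes. Group means were estimated from the 28 arrays together in limma 3.58.1 (R 4.3.3), with eBayes (2.26 prior degrees of freedom), with Benjamini-Hochberg adjustment over all features. The calls were tested on simulated data with independent noise of the same spread in every group. Those data held no slide effect or outlying array, so the test does not cover either. The number of arrays limits precision.

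All 10 members are named, with the 15 further pathway genes of largest change among those called alike at all time points or after transplantation, and the 3 closest features of each member called at all time points. Adk, P2ry1, Ahcy, Ampd2, Entpd4 and Slc29a4 were named outside this rule after their values were seen. Members, lists and rules were chosen with earlier results of these data known. Alternatives covered scanner intensities matched by rank order (quantile, 75th percentile, normexp with offset 50 on median signals, since mean signals were in 8 of 28 outputs), undisputed arrays, probes, blocks, sample subsets and single arrays left out. The fit without T1_NPC replicate 2 for comparisons outside that group was chosen after seeing the data. Numbers shared by replicates do not pair animals (correlations of same-numbered arrays -0.34 to 0.30).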

Additional observations from a re-analysis of the deposited data

Results flagged for a closer look

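In each group of 4 arrays, the highest and the lowest value of every member were compared with the nearest other array of the group, relative to the group's range. Of 70 groups examined, 5 had an array beyond the 95% critical value of Dixon's test, where chance gives about 1 in 20. These were Adora1 in T4 replicate 4 (10.65, below the others), Adora2b in T8 replicate 3 (10.63, above the others), Adora3 in T8 replicate 3 (7.22, above), P2ry12 in T2 replicate 1 (13.59, below) and P2ry12 in T1_NPC replicate 2 (11.25, below).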

How the results depend on the processing

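P2rx4, P2rx7, P2ry6 and Entpd1 were called at all 4 time points under each alternative, apart from scanner outputs read under their deposited samples (0 of 16 calls) and a required change of at least 2-fold (15 of 16, P2rx7 lost at T2). Under the deposited samples 0 members were called against T0 at T1, T2, T4 and T8 and in T1_NPC and T2_NPC, 0 in T1_NPC versus T1, T2_NPC versus T2 and the F test among T1, T2, T4 and T8, and 3 values reversed: Nt5e in T1_NPC versus T0 (-0.51) and versus T1 (-0.31), and P2ry12 in T1_NPC versus T1 (0.32). The cause was not tested. Of all features, that reading called 0, 1, 0 and 0 against T0 at T1, T2, T4 and T8, and 0 in the F test. With at least 2-fold required, the counts were 5 at T1, 4 at T2, 4 in T2_NPC versus T0, 1 in T1_NPC versus T1 and 0 in T2_NPC versus T2. T1_NPC versus T1 had 1 member with the slide as a random block and 0 with only the groups compared. T2_NPC versus T2 had 0 with the random block, 0 with 75th percentile scaling and 2 with the undisputed arrays (P2rx4 and Adora1, with P2rx7 lost). With the slide as a fixed block, counts were 1 for T2 versus T1, 7 at T4, 8 at T8 and 4 for the F test, and with the scan session 1, 7 and 4 for T2 versus T1, T4 and the F test. The F test called 0 members on the undisputed arrays, 1 with the brightest probe, 4 with the time course alone and 4 without T1_NPC replicate 2. With single arrays left out, counts ranged from 1 to 3 for T1_NPC versus T1, 0 to 1 for T2_NPC versus T2 and 0 to 4 for the F test. The replicate block changed no call (8 members at T1 with it). Apart from the deposited samples, the number of all features called under these settings is not given here, so the counts have no background beside them. P2rx7, dim in T0, is the member whose signal over background limits its fold change most.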
